A study of Mus musculus with 15 samples.

Results

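The interferon-gamma-induced GTPases of mouse fall into the guanylate-binding proteins (GBP) and the immunity-related GTPases (IRG), and 10 of them were followed here: *Gbp2*, *Gbp3*, *Gbp5*, *Gbp6* and *Gbp7* of the first family and *Igtp*, *Irgm1*, *Irgm2*, *Iigp1* and *Tgtp1* of the second. They were taken by gene symbol from the deposited table, which holds 18279 genes, and all 10 were found and measured. RNA of 15 subcutaneous tumors was sequenced in bulk. The tumors grew from Renca, a renal carcinoma cell line of BALB/c origin, injected in Matrigel into female BALB/c mice that were 4 to 6 weeks old when purchased. Tumors 1 to 5 came from control cells, tumors 6 to 10 from *Pbrm1* knockout clone 4 and tumors 11 to 15 from *Pbrm1* knockout clone 18. *Pbrm1* encodes a bromodomain-containing subunit of the PBAF chromatin remodelling complex, and both clones were made with CRISPR/Cas9 plasmids. The sample records call the control cells parental, whereas the series design and the methods describe control knockout cells. Mice of the study were left untreated or given PD-1 antibody, and the sources used here do not say which applied to these 15 tumors. Each knockout group is 1 clone, so genotype and clone cannot be told apart within a group, and p-values measure only the spread between tumors.

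GBPs and IRGs are large GTPases of cell-autonomous defence. Interferon-gamma binds a receptor of the IFNGR1 and IFNGR2 chains, which act through the kinases JAK1 and JAK2 on STAT dimers that bind GAS elements in promoters, while IRF factors bind the related ISRE. In interferon-treated mouse cells the GTPases gather on the membranes of vacuoles that hold intracellular parasites and bacteria, where ATG8-family proteins and their conjugation machinery help to direct them. The regulatory IRGs of the GMS type (*Irgm1*, *Irgm2*, *Igtp*) sit on the cell's own membranes and hold the effector IRGs of the GKS type (*Iigp1*, *Tgtp1*) inactive there. In tumors these genes are widely used as a readout of interferon-gamma exposure, and macrophages, T cells and tumor cells can all express them.

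The promoter stretches below are shown because they hold the letters that interferon-responsive factors bind and let the members be compared at that level. RefSeq (GRCm38.p6) gave a window of 250 bases before to 50 after the start for 8 of the 10 members, with none for *Gbp6* and *Iigp1*. Each stretch runs 5′ to 3′ in the direction of transcription, and capitals mark matches to the ISRE letters GAAANNGAAA or the GAS letters TTCNNNGAA on either strand. The start is that of the RefSeq transcript, which for 6 of the 8 lies inside the GENCODE gene, by 1926 bases for *Tgtp1*, 2956 for *Gbp5*, 15359 for *Irgm2* and 18 to 263 for the other 3.
Gbp5, chr3:142496749-142496798, plus strand, -185 to -136 from the start: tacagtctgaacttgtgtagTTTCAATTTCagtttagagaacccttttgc
Gbp7, chr3:142530210-142530312, plus strand, -126 to -24 from the start: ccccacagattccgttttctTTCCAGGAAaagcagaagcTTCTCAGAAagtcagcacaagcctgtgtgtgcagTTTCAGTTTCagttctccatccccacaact
Gbp3, chr3:142559979-142560034, plus strand, -65 to -10 from the start: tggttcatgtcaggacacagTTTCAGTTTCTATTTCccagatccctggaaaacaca
Gbp2, chr3:142620584-142620633, plus strand, -79 to -30 from the start: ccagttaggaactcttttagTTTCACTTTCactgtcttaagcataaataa
Irgm1, chr11:48871415-48871470, minus strand, -50 to +6 from the start: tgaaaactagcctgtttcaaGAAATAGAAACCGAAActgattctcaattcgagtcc
Tgtp1, chr11:48992294-48992354, minus strand, -108 to -48 from the start: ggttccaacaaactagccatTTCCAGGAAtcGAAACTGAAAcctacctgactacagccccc
Igtp, chr11:58199491-58199551, plus strand, -65 to -5 from the start: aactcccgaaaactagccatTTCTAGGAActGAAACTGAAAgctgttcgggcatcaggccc
Irgm2, chr11:58214882-58214942, plus strand, -95 to -35 from the start: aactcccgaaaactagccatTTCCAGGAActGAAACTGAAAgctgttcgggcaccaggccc
The 8 members had 9 windows, since *Gbp3* had a second start. Of the 9 windows 8 held the ISRE letters, 1 for each member, and so did 3.44% of all 32851 promoter windows of the same length. The GAS letters stood in 5 of the 9 (*Gbp5*, *Gbp7*, *Tgtp1*, *Igtp* and *Irgm2*) and in 8.30% of all windows. Both *Gbp5* GAS matches lie outside the stretch printed. The stricter letters TTCCNGGAA, contained in the GAS letters, were found in *Gbp7*, *Tgtp1* and *Irgm2*, and in 1.15% of all windows. Windows with both ISRE and GAS letters made up 0.454% of the total. In *Tgtp1*, *Igtp* and *Irgm2* the GAS letters ended 2 bases before the ISRE letters. The stretches of *Igtp* and *Irgm2* differed at 2 of 61 positions, whereas *Tgtp1* differed from *Irgm2* at 20 of 61. In *Gbp3* and *Irgm1* a pair of ISRE matches overlapped. These matches describe letters and do not show that a factor binds there.

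*Pbrm1* was lower in each knockout tumor. Its normalized counts were 9704, 9871, 8959.7, 7452 and 9075 in control tumors, 2686, 2709, 2807, 2484 and 3068 in clone 4 and 2725, 3138, 2572, 2866 and 2892 in clone 18, which differed by -1.69 (SE 0.07, adjusted p = 2.94e-11) on the log2 scale (limma, SE is the standard error) between the 10 knockout and the 5 control tumors. Between 32924414 and 49099168 reads per tumor fell on genes. Of the renal epithelial markers all 9 were above 0 in each tumor, with summed normalized counts of 98844 to 128672 in knockout and 115134 to 139040 in control tumors. Control tumor 1 stood apart for the genes described here. It had the highest value of the 5 control tumors for 10 of 10 members, whereas it was the highest control for 21.7% of the 16494 genes whose normalized counts averaged 10 or more. The member results and the counts of each gene list are therefore given with and without it.

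All 10 members had a lower mean in the 10 *Pbrm1* knockout tumors than in the 5 control tumors, and 4 of them passed the test. *Tgtp1*, *Gbp6*, *Iigp1* and *Igtp* were lower at an adjusted p under 0.05 (limma on log2(normalized count + 1), Benjamini-Hochberg over 18250 genes). Over all genes tested, 12.9% were lower and 9.23% higher by the same rule. The median log2 difference was -0.52 over the members and -0.02 over all genes, and none of the 10 was higher. No member separated the groups completely: for 0 of 10 were all knockout tumors below every control tumor, a pattern that 4.87% of all genes showed. In bulk tumor RNA, fewer cells of a type and less RNA per cell cannot be told apart.

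**Figure D1:**
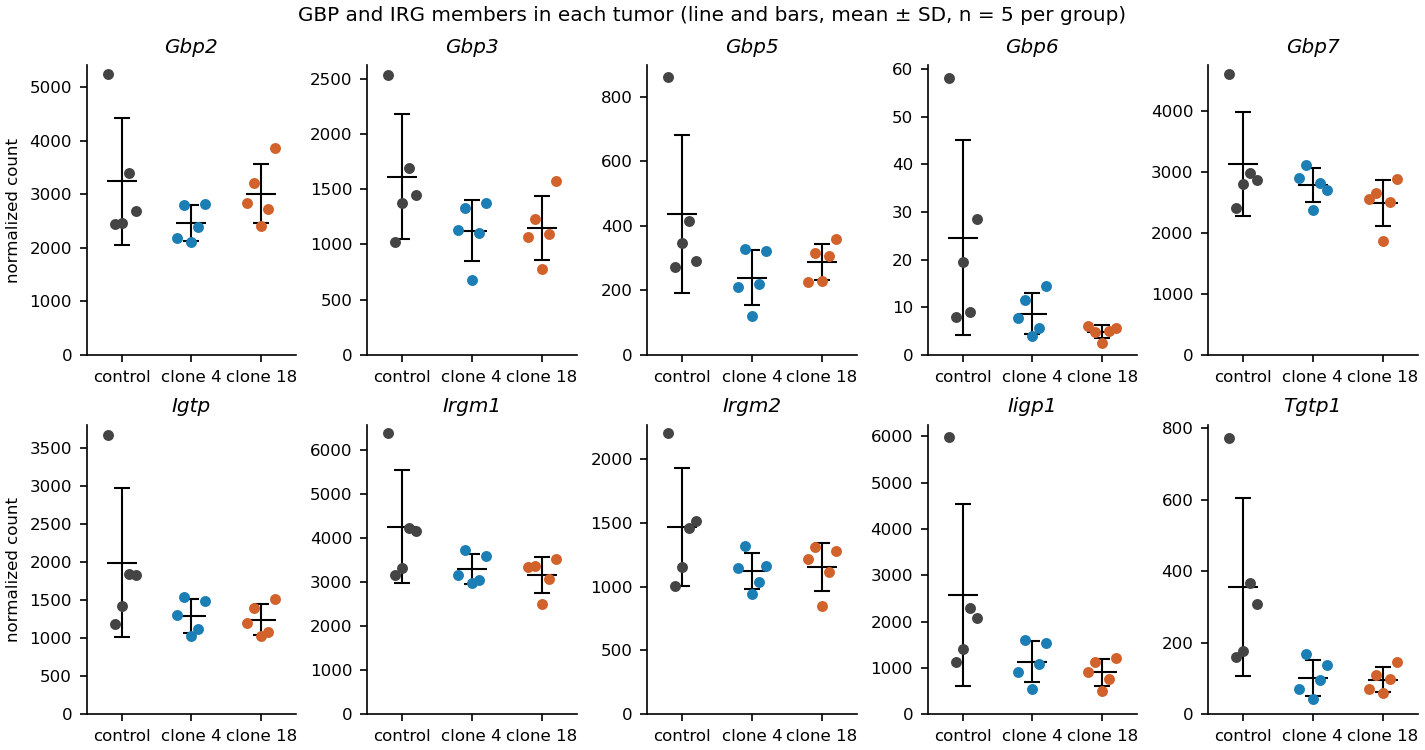
Normalized count (vertical axis) of each member in the 5 tumors of each group, with the mean and SD. Control tumor 1 is the highest control point in each panel, and the *Tgtp1* values of the knockout tumors, 41.8 to 167, lie mostly below the lowest control value of 159.

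The effector IRGs showed the largest differences among the IRG members. *Tgtp1* (ENSMUSG00000078922, chromosome 11, 48985327 to 48994172, minus strand), also known as Irgb6, is a GKS protein that loads early onto the parasite vacuole. Tumor by tumor, it had normalized counts of 774, 159, 176, 366 and 309 in control tumors 1 to 5, 69.4, 167, 41.8, 94.4 and 138 in tumors 6 to 10 of clone 4, and 70.4, 109.5, 60.2, 97.2 and 147 in tumors 11 to 15 of clone 18. In 9 of 10 knockout tumors the value was below every control tumor, with tumor 7 as the exception. On average the knockout tumors held 27.9% of the control level (99.5 ± 40.9, SD, n = 10, against 357 ± 249, SD, n = 5). Tumor 1 raised that control mean, and the other control tumors averaged 253 ± 101 (SD). The log2 difference was -1.70 (SE 0.35, adjusted p = 0.00219) by limma, and the exact permutation test over all assignments of the 15 tumors (two-sided) gave p = 6.66e-04. Of the 50-base words in its exons 79.4% also occur in *Tgtp2*, so how shared reads were counted, or whether they were left out, is uncertain. The count of both genes summed, chosen after their values were seen, was 443 to 2035.6 in control and 98.5 to 382.9 in knockout tumors. These ranges did not overlap, a pattern that 4.87% of all genes showed. *Tgtp2*, the larger part with a control mean of 589, had no overlap by itself. A sum does not recover shared reads if they were left out, so it does not settle the *Tgtp1* difference.

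*Iigp1* (ENSMUSG00000054072, chromosome 18, 60376027 to 60392634, plus strand), or Irga6, is the best studied effector IRG and oligomerizes on the vacuole membrane. The table gave 5982, 1131, 1408, 2304 and 2074 normalized counts in control tumors 1 to 5, 916, 1598, 540.1, 1089 and 1527 in tumors 6 to 10 of clone 4, and 917, 1122, 505, 749.8 and 1216 in tumors 11 to 15 of clone 18. Tumor 1 held 3.44 times the median of the other 4 control tumors, and 7 of 10 knockout tumors were below every control tumor. The mean of the 10 knockout tumors, 1018 ± 370 (SD, n = 10), was 39.5% of the mean of all control tumors, 2580 ± 1961. Tumor 1 raised that control mean, and the other 4 control tumors averaged 1729 ± 551 (SD). The log2 difference was -1.17 (SE 0.33, adjusted p = 0.0162) by limma, with p = 0.00533 by the exact permutation test.

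The regulatory IRGs were abundant and differed less. *Igtp* (ENSMUSG00000078853, chromosome 11, 58199556 to 58207591, plus strand), or Irgm3, is a GMS protein of the endoplasmic reticulum and lipid droplets. It was measured at 3680, 1192, 1424, 1851 and 1834 normalized counts in control tumors 1 to 5, 1305, 1538, 1026, 1116 and 1494 in tumors 6 to 10 of clone 4, and 1200.1, 1392, 1030.2, 1082 and 1517 in tumors 11 to 15 of clone 18. In 4 of 10 knockout tumors it was below every control tumor, and the other 6 overlapped the lower controls. The log2 difference was -0.55 (SE 0.19, adjusted p = 0.0433) by limma (exact permutation p = 0.0137). *Igtp* and *Irgm2* overlap on the same strand and share 11.8% of the *Igtp* words. How reads shared by both were counted, or whether they were left out, is uncertain.

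*Irgm1* (ENSMUSG00000046879, chromosome 11, 48861968 to 48871683, minus strand) encodes a GMS protein of Golgi, lysosomes and mitochondria linked to autophagy. Its normalized counts were 6394, 3176, 3332, 4224 and 4172 in control tumors 1 to 5, 3154, 3731, 2985, 3052 and 3595 in tumors 6 to 10 of clone 4, and 3338, 3374, 2511, 3085 and 3535 in tumors 11 to 15 of clone 18. In 5 of 10 knockout tumors it was below every control tumor. Its log2 difference of -0.36 (SE 0.13, adjusted p = 0.0517) by limma missed the threshold by a small margin. Without tumor 1 the *Irgm1* difference was -0.20 (adjusted p = 0.182 by limma). *Irgm2* (ENSMUSG00000069874, chromosome 11, 58199618 to 58222782, plus strand), the third GMS protein, gave a log2 difference of -0.33 (SE 0.14, adjusted p = 0.121). Tumor by tumor, it had normalized counts of 2203, 1006, 1149.9, 1456 and 1514 in control tumors 1 to 5, 1149.5, 1315, 945, 1032 and 1157 in tumors 6 to 10 of clone 4, and 1213, 1314, 849.5, 1116 and 1279.6 in tumors 11 to 15 of clone 18. The *Irgm2* groups overlapped, with 2 knockout tumors below the lowest control value.

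Among the 5 GBP members, the gene with the lowest level per length carried the largest difference. *Gbp6* (ENSMUSG00000104713, chromosome 5, 105270702 to 105293698, minus strand) belongs to the GBP cluster on chromosome 5. The table gave 58.0, 7.9, 19.5, 9.0 and 28.5 normalized counts in control tumors 1 to 5, 7.7, 11.5, 4.0, 5.7 and 14.5 in tumors 6 to 10 of clone 4, and 6.1, 4.9, 2.6, 5.0 and 5.6 in tumors 11 to 15 of clone 18. The counts behind these values were 8 to 50 reads in control and 2 to 13 in knockout tumors, so counting error weighs on each. In 8 of 10 knockout tumors the value was below every control tumor, with tumors 7 and 10 of clone 4 inside the control range. The log2 difference was -1.49 (SE 0.43, adjusted p = 0.0185) by limma (exact permutation p = 0.00466), and the pseudocount of 1 understates the change of so low a gene. Of its 50-base words 45.9% also occur in *Gbp10* and 65.0% in *Gm43302*. *Gbp6* and *Gbp10* summed ran from 24.6 to 123 in control and 6 to 29 in knockout tumors, again chosen after the values were seen. This sum, too, does not recover shared reads if they were left out.

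The 4 GBP members on chromosome 3 did not pass the test. *Gbp5* (ENSMUSG00000105504, chromosome 3, 142493978 to 142522344, plus strand), linked to activation of the NLRP3 inflammasome, had the largest difference of these 4. It was measured at 861, 271, 346, 416 and 291 normalized counts in control tumors 1 to 5, 209, 328, 121, 219.6 and 322 in tumors 6 to 10 of clone 4, and 228, 315, 230.4, 308 and 358 in tumors 11 to 15 of clone 18. In 5 of 10 knockout tumors it was below every control tumor, and its log2 difference was -0.65 (SE 0.26, adjusted p = 0.0864) by limma. *Gbp3* (ENSMUSG00000028268, chromosome 3, 142560026 to 142573209, plus strand) gave -0.48 (SE 0.19, adjusted p = 0.0881). Its normalized counts were 2529.9, 1019.9, 1375, 1693 and 1446 in control tumors 1 to 5, 1131, 1334, 677, 1102 and 1374 in tumors 6 to 10 of clone 4, and 1069.5, 1234, 775, 1096 and 1571 in tumors 11 to 15 of clone 18. Only tumors 8 and 13 were below the lowest *Gbp3* control value.

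*Gbp2* (ENSMUSG00000028270, chromosome 3, 142620602 to 142638008, plus strand), a prenylated GBP that coats parasite vacuoles, was the most abundant GBP member per length. Tumor by tumor, it had normalized counts of 5244, 2434, 2454, 3399 and 2677 in control tumors 1 to 5, 2174, 2797, 2108, 2393 and 2816 in tumors 6 to 10 of clone 4, and 2842, 3204, 2414, 2725 and 3864 in tumors 11 to 15 of clone 18. The groups overlapped widely, and tumor 15 of clone 18 exceeded 4 of the 5 control tumors. Its log2 difference was -0.20 (SE 0.16, adjusted p = 0.419), with a 95% confidence interval of -0.54 to 0.14. *Gbp7* (ENSMUSG00000040253, chromosome 3, 142530342 to 142550149, plus strand), linked to assembly of the NADPH oxidase on vacuoles, gave -0.22 (SE 0.13, adjusted p = 0.233) with an interval of -0.49 to 0.04. The table gave 4612, 2409, 2799, 2975 and 2863 normalized counts in control tumors 1 to 5, 2894, 3120, 2369, 2814 and 2708 in tumors 6 to 10 of clone 4, and 2553, 2652, 1873, 2513 and 2887 in tumors 11 to 15 of clone 18. Tumors 8 and 13 were again the lowest knockout tumors for *Gbp7*, and 10.5% of its words are shared with the overlapping *Gm43802*.

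Divided by exon length, the control means per kb were 1288 ± 471 for *Gbp2*, 987 ± 486 for *Igtp*, 733 ± 221 for *Irgm1*, 558 ± 152 for *Gbp7*, 494 ± 173 for *Gbp3*, 443 ± 337 for *Iigp1* and 397 ± 125 for *Irgm2* (normalized counts per kb, SD, n = 5). Neighbours in this order differed by less than the larger of their SDs. *Tgtp1* at 111 ± 77.7, *Gbp5* at 65.8 ± 36.7 and *Gbp6* at 4.13 ± 3.44 normalized counts per kb were the lowest. In the 10 knockout tumors *Gbp2* was still highest at 1087 ± 207 per kb, *Iigp1* had 175 ± 63.6 and *Tgtp1* 31.0 ± 12.8.

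The members varied together from tumor to tumor. Control tumor 1 was highest and control tumor 2 lowest of the controls for 10 of 10 members. Tumor 8 was the lowest of clone 4 for 10 of 10 members and tumor 13 the lowest of clone 18 for 9 of 10. Relative to the control mean, the average over members on the log2 scale was 0.99 in tumor 1, -0.63 in tumor 2, -1.25 in tumor 8 and -1.20 in tumor 13. In clone 4 the highest value was in tumor 7 for 7 members and in tumor 10 for the other 3. With each gene centred on its group mean, Pearson's r between pairs of members over the 15 tumors ran from 0.66 to 0.97 over 45 pairs, with a median of 0.89, and without tumor 1 from 0.35 to 0.96 with a median of 0.83. These correlations describe genes measured in the same libraries.

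**Figure D2:**
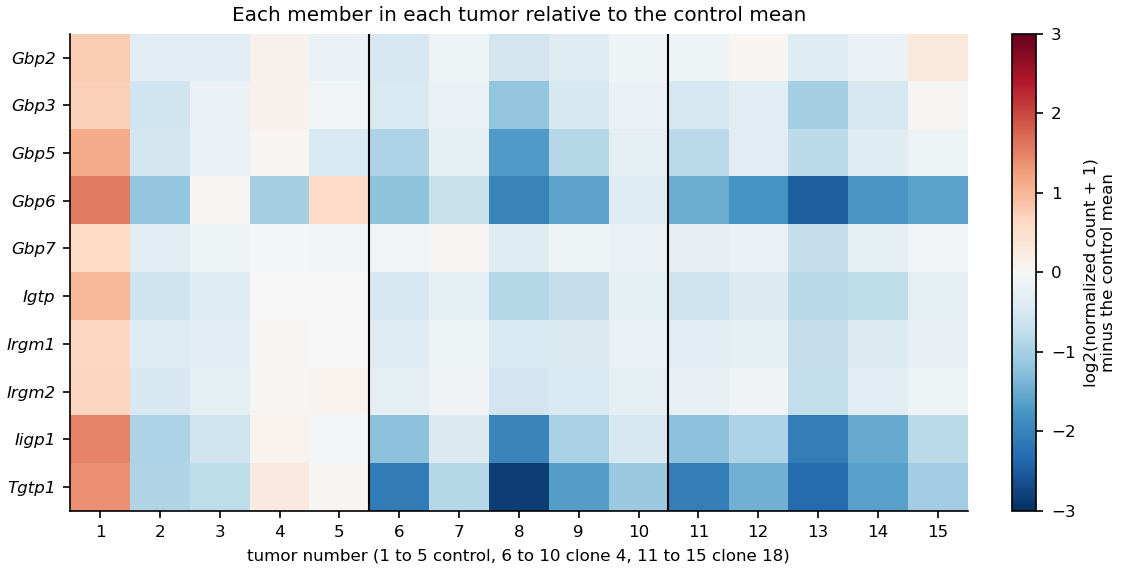
Log2(normalized count + 1) of each member (rows) in each tumor (columns) minus the mean of the 5 control tumors of that gene, in colour. Tumor 1 is above 0 for all 10 members, and tumors 8 and 13 hold the lowest member averages, -1.25 and -1.20.

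Without control tumor 1, 1 of 10 members remained lower at the threshold, *Tgtp1* at -1.36 (SE 0.33, adjusted p = 0.00909 by limma), a share no larger than the 10.4% among all genes. *Iigp1* was then at -0.80 (adjusted p = 0.0589), *Gbp6* at -1.10 (adjusted p = 0.071) and *Igtp* at -0.30 (adjusted p = 0.14). *Gbp2* was then at -0.01 and *Gbp7* at -0.07 on the log2 scale. *Gbp5* was at -0.37, *Gbp3* at -0.30, *Irgm1* at -0.20 and *Irgm2* at -0.17 (adjusted p = 0.305, 0.297, 0.182 and 0.408 by limma). All 10 differences between knockout and control kept a negative sign, with a median of -0.30 against -0.01 over all genes. In clone 18 alone *Gbp2* was then at 0.13 (adjusted p = 0.553 by limma). The T cell markers summed to 2967 in tumor 1 and 1024 to 1988 in the other controls, and the NK cell markers to 488 against 68.8 to 285. Tumor 1 also lay above the other controls for the macrophage (205627 against 131527 to 170475), dendritic cell (2951 against 1397 to 2754) and B cell sums (1036 against 801 to 923). The same held for the skeletal muscle sum (247 against 91.7 to 133), whereas the fibroblast sum was below them (55999.5 against 62609 to 92772). The neutrophil sum (960 against 928 to 1950) and the sums of the remaining marker lists lay inside the range of the other controls. The part of these cells in the values of tumor 1 was not tested. On the recovered whole reads of all 15 tumors, tumor 1 included, edgeR found 5 of 10 members lower (11.9% of all genes). It added *Irgm1* at an adjusted p of 0.0361. DESeq2 found 7 of 10 (14.1% of 17883 genes with an adjusted p), adding *Gbp3*, *Gbp5* and *Irgm1* at adjusted p of 0.0352, 0.0217 and 0.0156.

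**Figure D3:**
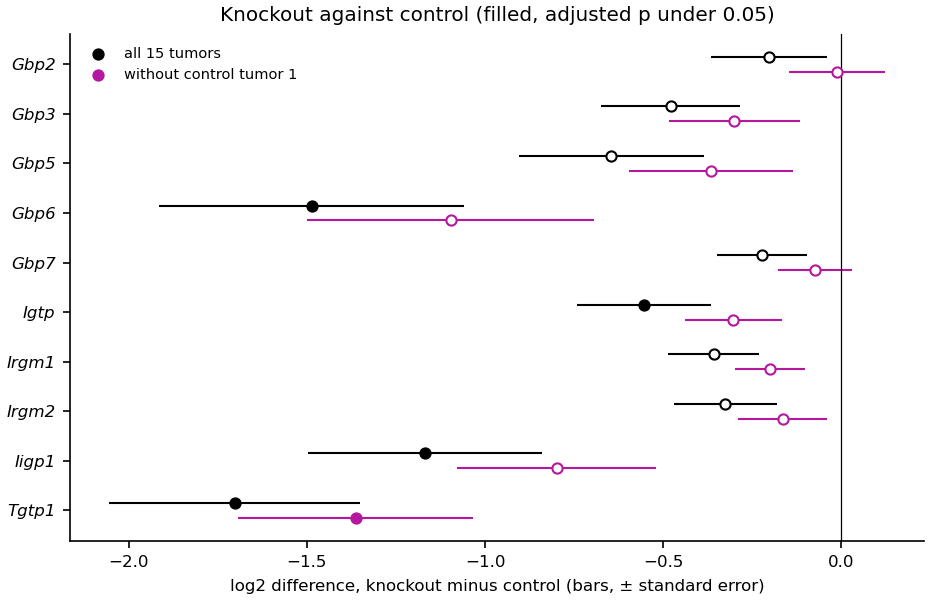
Log2 difference of each member between knockout and control tumors (horizontal axis, bars ± standard error) with all 15 tumors (black) and without control tumor 1 (purple), filled where the adjusted p was under 0.05. The 4 members *Gbp6*, *Igtp*, *Iigp1* and *Tgtp1* are filled in black and *Tgtp1* alone in purple.

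Each clone was also compared with the same 5 control tumors, so the clone results are not independent of each other. In clone 4, 1 of 10 members was lower, *Tgtp1* at -1.71 (SE 0.42, adjusted p = 0.00864) by limma, the same share as the 10% of all genes. In clone 18, 3 of 10 were lower against 14.2% of all genes: *Gbp6* at -1.81 (SE 0.48, adjusted p = 0.0108), *Iigp1* at -1.32 (SE 0.38, adjusted p = 0.0176) and *Tgtp1* at -1.70 (SE 0.42, adjusted p = 0.00645). For these 3 the clone 4 values were -1.16 (SE 0.48, adjusted p = 0.111), -1.02 (SE 0.38, adjusted p = 0.0759) and the *Tgtp1* value above. Without control tumor 1 the same members passed, 1 of 10 in clone 4 (8.82% of all genes) and 3 of 10 in clone 18 (12%). *Tgtp1* was then at -1.37 in clone 4 (adjusted p = 0.0242 by limma). In clone 18 *Gbp6* was at -1.42, *Iigp1* at -0.95 and *Tgtp1* at -1.36 (adjusted p = 0.0296, 0.0433 and 0.0191 by limma). For *Tgtp1* and *Iigp1* the means of the clones differed by less than either SD: *Tgtp1* was 102 ± 50.7 in clone 4 and 96.8 ± 34.2 in clone 18, and *Iigp1* 1134 ± 439 and 902 ± 286 (SD, n = 5).

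Between the clones 0 of 10 members passed the limma test, and 0 had an unadjusted p under 0.05, whereas 4.62% of all genes passed. With edgeR and DESeq2 the count was also 0. The log2 differences of clone 18 minus clone 4 ran from -0.65 for *Gbp6* to 0.32 for *Gbp5*. Their 95% confidence intervals were wide, from -1.66 to 0.37 for *Gbp6* and from -0.86 to 0.89 for *Tgtp1*, and narrower for *Irgm1*, from -0.38 to 0.25. *Gbp2* was 2458 ± 336 in clone 4 and 3009.7 ± 555 in clone 18, a difference of 0.28 (SE 0.18, adjusted p = 0.428).

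**Figure D4:**
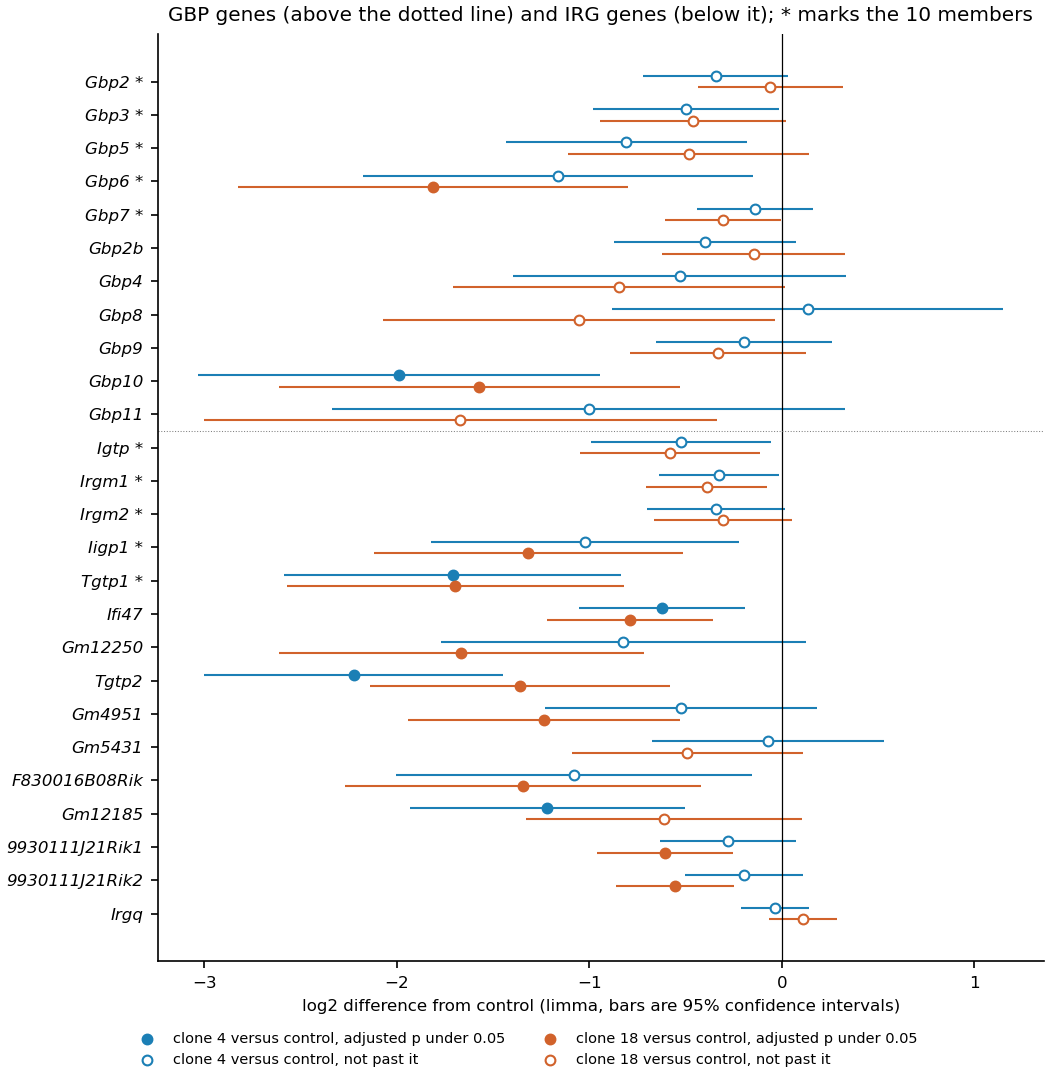
Log2 difference from control of each GBP and IRG gene found (rows, members marked with *) in clone 4 (blue) and clone 18 (orange), with 95% confidence intervals, filled where the adjusted p was under 0.05. *Tgtp1*, *Tgtp2*, *Gbp10* and *Ifi47* are filled in both clones, while *Irgq* lies near 0.

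The other genes of both families were counted as well. Of 16 further GBP and IRG genes, 6 were lower and 0 higher in knockout against control, where 12.9% and 9.23% of all genes were. The 6 were 1 of 6 GBPs (median -0.57) and 5 of 10 IRGs (median -0.79). *Tgtp2*, the near-identical neighbour of *Tgtp1*, had 1262, 284, 339, 532 and 529 in the control tumors and 56.7 to 254 in the knockout tumors. All 10 knockout tumors were below every control tumor for *Tgtp2*, and its log2 difference was -1.79 (SE 0.36, adjusted p = 0.00173) by limma. *Gbp10*, whose words are to 73.3% also in *Gbp6*, ran 16.7 to 65.0 in control and 2.0 to 17.2 in knockout tumors with a difference of -1.78 (SE 0.43, adjusted p = 0.00626).

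The other IRG genes that passed were *Gm12250* at -1.24 (SE 0.42, adjusted p = 0.0409), *F830016B08Rik* at -1.21 (SE 0.38, adjusted p = 0.0278), *Gm12185* at -0.91 (SE 0.31, adjusted p = 0.0446) and *Ifi47* (Irgd) at -0.70 (SE 0.18, adjusted p = 0.00841), all by limma. *Gm12185* overlaps *Tgtp1* on the same strand. Without tumor 1, *Tgtp2*, *Gbp10* and *Ifi47* still passed, at adjusted p of 0.00769, 0.0263 and 0.0315, whereas *Gm12250*, *F830016B08Rik* and *Gm12185* did not (adjusted p = 0.157, 0.108 and 0.163). *Gm4951*, *9930111J21Rik1* and *9930111J21Rik2* passed in clone 18 only by their own test, at -1.24, -0.61 and -0.55 (adjusted p = 0.0121, 0.0138 and 0.0102), and their difference between the clones did not pass (adjusted p = 0.266, 0.312 and 0.192). Across both families 10 of 26 genes were lower in knockout tumors, against 12.9% of all genes, and 0 were higher. In clone 4 the count was 5 (10% of all genes) and in clone 18 it was 11 (14.2%), with 0 higher in either. Without tumor 1, 1 of 10 members, 1 of 6 other GBPs and 2 of 10 other IRGs were lower in knockout tumors, against 10.4% of all genes. Of the *9930111J21Rik1* words 80.4% also occur in *9930111J21Rik2*, so, as for *Tgtp1* and *Tgtp2*, these counts are not of independent genes. *Irgq*, an IRG-like gene that is not interferon-induced, was 1032 ± 90.5 (SD, n = 10) against 1006 ± 120.1 (SD, n = 5), a difference of 0.04 (SE 0.08, adjusted p = 0.779). *Gbp2b*, the most abundant other GBP per length, gave -0.27 (SE 0.20, adjusted p = 0.361), and the very large GTPase *Gm8995* gave 0.20 (SE 0.12, adjusted p = 0.266). Neither of the 2 very large inducible GTPases passed, but without tumor 1 *Gm8995* was higher, at 0.34 (SE 0.10, adjusted p = 0.0338).

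Of 11 genes from the receptor to the promoter, not all of which act on the GTPases, 4 were lower and 0 higher (median -0.10). Over all genes 12.9% were lower and 9.23% higher. Without control tumor 1, 2 of the 11 were lower, against 10.4% of all genes. *Ifngr2*, the signalling chain of the receptor, had 3892, 3522, 3822, 3981 and 3568 in control tumors, 3024, 3071, 3311, 2778 and 3522 in clone 4 and 3008, 2799, 2754, 2412 and 2880.5 in clone 18. In 9 of 10 knockout tumors *Ifngr2* was below every control tumor, and its log2 difference was -0.35 (SE 0.07, adjusted p = 0.00195) by limma. The ligand-binding chain *Ifngr1* gave 0.11 (SE 0.08, adjusted p = 0.371), *Jak1* 0.05 (SE 0.06, adjusted p = 0.622) and *Jak2* 0.09 (SE 0.06, adjusted p = 0.297). *Irf1*, itself an interferon-gamma target, was 2920.0 ± 287 in knockout (SD, n = 10) and 2935 ± 767 in control tumors (SD, n = 5), a difference of 0.02 (SE 0.12, adjusted p = 0.915). The transcription factors *Batf2* and *Irf8* were lower, at -0.67 (SE 0.21, adjusted p = 0.0273) and -0.41 (SE 0.10, adjusted p = 0.00673). Without tumor 1 *Ifngr2* and *Irf8* still passed, at -0.34 and -0.34 (adjusted p = 0.00757 and 0.0286 by limma), whereas *Batf2* was at -0.49 (adjusted p = 0.105). Of 5 feedback inhibitors of the pathway, 1 was lower with and without tumor 1, the SUMO ligase *Pias1* at -0.22 (SE 0.06, adjusted p = 0.0128).

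Of 26 other interferon-gamma targets, 10 were lower and 1 higher, with a median of -0.28, where 12.9% and 9.23% of all genes were. Among called targets that averaged 10 normalized counts or more, the complement inhibitor *Serping1* had the largest difference at -2.39 (SE 0.44, adjusted p = 8.00e-04), followed by the T cell chemokines *Cxcl9* at -2.03 (SE 0.50, adjusted p = 0.00733) and *Cxcl10* at -1.31 (SE 0.27, adjusted p = 0.00183). *Cxcl9* was 1290.5 in tumor 1, and its knockout values ran from 38.1 to 248. *Ido1*, averaging 5.56 and named after its values were seen, was at -1.98 (adjusted p = 0.0254 by limma). Without tumor 1, 6 of 26 targets were lower, against 10.4% of all genes, and 2 were higher. *Serping1* was then at -2.52, *Cxcl9* at -1.52 and *Cxcl10* at -1.12 (adjusted p = 0.00192, 0.0287 and 0.00918 by limma) and *Ido1* at -1.34 (adjusted p = 0.0918). Of 19 genes typical of type I interferon, 3 were lower and 0 higher (median -0.09), a share near the 12.9% of all genes lower. They were *Ifit3* at -1.28 (SE 0.17, adjusted p = 3.91e-05), *Ifi44* at -0.88 (SE 0.23, adjusted p = 0.00961) and *Ifit2* at -0.21 (SE 0.07, adjusted p = 0.0354). Without tumor 1 the type I count was also 3, against 10.4% of all genes. *Ifit2* then no longer passed (adjusted p = 0.0713 by limma) and *Mx2*, named after its values were seen, passed at -0.66 (adjusted p = 0.0454).

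Partners of the GTPases were tested in the same fit, in which 12.9% of all genes were lower and 9.23% higher. Of 10 genes of the ATG8 conjugation system, 4 were lower and 1 higher, with a median of -0.07. The ATG8 proteins *Gabarapl1* and *Gabarapl2* were lower at -0.77 (SE 0.10, adjusted p = 4.33e-05) and -0.30 (SE 0.06, adjusted p = 0.00118), and *Map1lc3a* was higher at 0.28 (SE 0.09, adjusted p = 0.0269). Of 8 inflammasome genes, 4 were lower and 0 higher, with a median of -0.50. They included the DNA sensor *Aim2* at -0.95 (SE 0.15, adjusted p = 1.84e-04), the pore-forming *Gsdmd* at -0.66 (SE 0.08, adjusted p = 1.49e-05) and the adaptor *Pycard* at -0.51 (SE 0.16, adjusted p = 0.0273). The inflammasome count was 2 without control tumor 1 (10.4% of all genes lower). It was also 2 without control tumor 3, 4 or 5 (10.3%, 10.7% and 10.8%). Without tumor 1 the ATG8 count was again 4 lower and 1 higher, *Pycard* was at -0.42 (adjusted p = 0.0941 by limma) and the other named partners still passed.

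**Figure D5:**
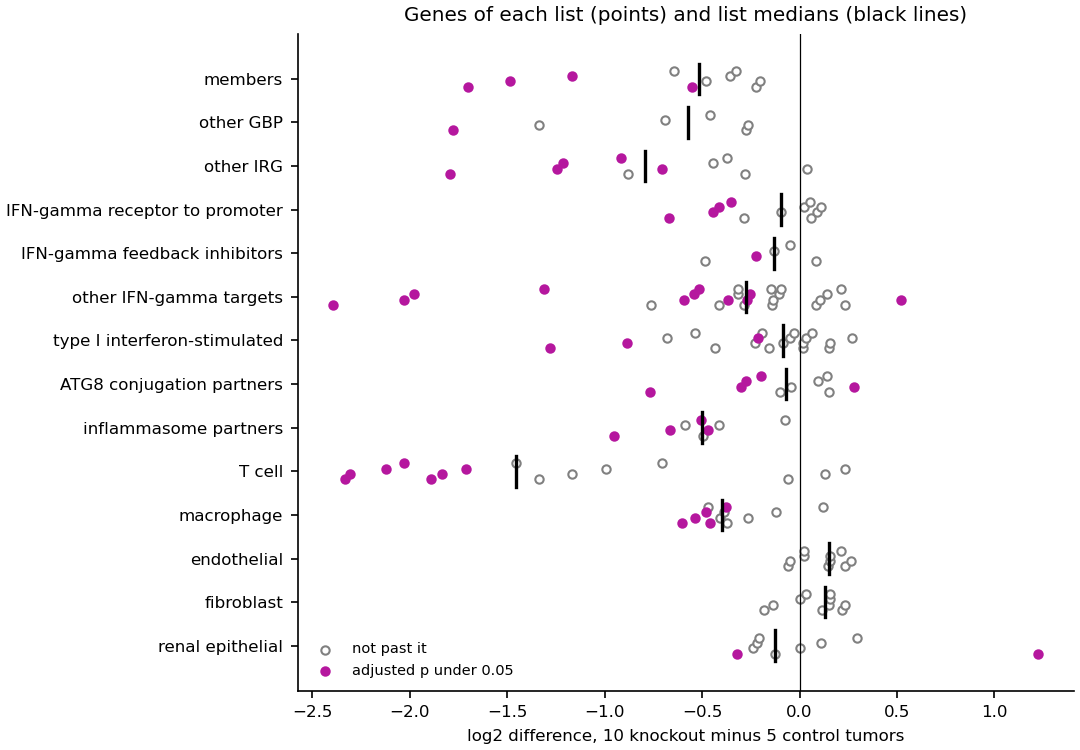
Log2 difference between the 10 knockout and 5 control tumors (horizontal axis) of each gene in a list (points, filled where the adjusted p was under 0.05), with list medians as black lines. The members have a median of -0.52, other IRG genes -0.79, T cell markers -1.46 and endothelial markers 0.15.

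Some markers of cells that can express these GTPases were lower beside them. Over all genes 12.9% were lower and 9.23% higher, and 10.4% were lower without tumor 1. Of 15 T cell markers 7 were lower and 0 higher (median -1.46), led by *Cd8a* at -2.33 (SE 0.57, adjusted p = 0.0069), *Cd3g* at -2.30 (SE 0.45, adjusted p = 0.0013) and *Cd3d* at -2.12 (SE 0.55, adjusted p = 0.0102). Their summed normalized counts were 1024 to 2967 in control, 1198 to 2339 in clone 4 and 1398 to 1819.5 in clone 18, so the groups overlapped. *Thy1*, also expressed by fibroblasts, and *Lck* made up 65.5% of the control sum and differed by 0.23 and -0.06 (adjusted p = 0.507 and 0.782 by limma). The other 13 markers, set apart after their values were seen, summed to 1497 in tumor 1, 207 to 601 in the other controls and 172 to 432 in knockout tumors. Without tumor 1, 5 of 15 T cell markers were lower, with *Cd8a* at -1.92, *Cd3g* at -1.88 and *Cd3d* at -1.72 (adjusted p = 0.0298, 0.00499 and 0.0426 by limma). Of 12 macrophage markers 5 were lower and 0 higher (median -0.40), with *Csf1r* at -0.60 (SE 0.13, adjusted p = 0.00331), and none was at 0 in any tumor. The macrophage sums were 131527 to 205627 in control and 102813 to 146672 in knockout tumors, and without tumor 1 the count was 3 of 12, with *Csf1r* at -0.50 (adjusted p = 0.0148 by limma). Of 7 NK cell markers found 0 passed (sums 68.8 to 488 and 44.5 to 316), and *Ncr1*, *Klrb1c*, *Klre1* and *Eomes* were at 0 in at least 1 tumor. Dendritic cell markers gave 1 of 8 lower, neutrophil markers 2 of 6 and B cell markers 1 of 6, and without tumor 1 these counts were 0, 1 and 1. Endothelial and fibroblast markers gave 0 of 10 in either direction and keratinocyte markers 0 of 2. Of 8 skeletal muscle markers 0 passed, but their median log2 difference was 2.30, and in clone 18 it was 3.41 with 1 marker higher. Their sums were 91.7 to 247 in control, 74.3 to 1359 in clone 4 and 114 to 2061 in clone 18 (medians 118, 96.7 and 1752), and 1 of 8 was higher without tumor 1. Adipocyte markers gave 1 of 6 lower, red cell markers 1 of 3 higher, and renal epithelial markers 1 of 9 lower and 1 higher, with the same counts without tumor 1. The part of these cells in the GTPase values was not tested.

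By likeness over tumors, 16467 genes outside the families with a mean of at least 10 were ranked by Pearson's r with the average of the members, all centred on their group means (n = 15 tumors, as a description). Among the 5 most alike were *AW112010*, a transcript induced in interferon-exposed immune cells, at r = 0.92, *Irf1* at 0.91, the peptide transporter subunit *Tap1* at 0.89 and the T cell adaptor *Lat* at 0.89. Without tumor 1 the values were 0.89, 0.82, 0.87 and 0.87. *AW112010* had a log2 difference of -1.57 (SE 0.35, adjusted p = 0.00367 by limma) and *Irf1* of 0.02.

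The genes around the GTPase clusters gave no common direction. Of 30 neighbours, the nearest 3 on each side of each cluster, 4 were lower and 4 higher, with a median of -0.03. Over all genes 12.9% were lower and 9.23% higher. One of them, *4930438A08Rik*, lies 52.0 kb beyond the *Irgm2* cluster on chromosome 11 and differed by -4.81 (adjusted p = 2.75e-05 by limma). Genes outside the families had medians between -0.01 and 0.01 on chromosomes 3, 5, 11 and 18, from 402 genes on chromosome 18 to 1296 on chromosome 11.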

How the data were processed

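RNA from 15 Renca tumors was sequenced, 5 per group. The authors used TopHat2 for alignment to mm10, HTSeq for gene counts and DESeq for a size factor per tumor. The deposited signal is the count over that factor, rounded to 0.1. Tool versions and the strand setting are not given in the sources used here. Values up to 8000 were multiples of 1 step per tumor in 99.98% of cases or more (tolerance 0.051), and dividing by it gave 32924414 to 49099168 whole reads per tumor. No pair of tumors within a group agreed within sampling noise (30 pairs, lowest chi-square 18.56 per degree of freedom).

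Of 18279 genes, 29 were at 0 in each tumor. The other 18250 were fitted on log2(normalized count + 1) with limma 3.58.1 with trend, once for 10 knockout against 5 control tumors and once for the 3 groups, with Benjamini-Hochberg adjustment over all genes at 0.05. The exact permutation test was two-sided and used every assignment of 5 and 10 tumors. A call is an adjusted p under 0.05. Alternatives were pseudocounts of 0.1 and 5, a mean of at least 10, upper quartile and quantile scaling, limma without trend, 2 groups alone, a two-sample test with unequal variances, recovered reads in DESeq2 1.42.0 and in edgeR 4.0.16, a stricter GAS motif, Spearman's rank, and each tumor left out. The limma, two-sample, edgeR and DESeq2 fits of knockout against control were tested on simulated counts.

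The members and lists were chosen with earlier results of these data known. Named genes were the 10 members, other GBP and IRG genes past the threshold in any contrast and the 2 most abundant, 5 fixed pathway genes, and up to 3 genes per list with the largest difference among called genes averaging 10 or more. The 5 most alike genes and the nearest 3 neighbours per side of each cluster followed fixed rules. Some genes that met these rules are not reported here. Positions and exon lengths are from GENCODE M21 (GRCm38, equal to mm10), and promoter sequences from RefSeq GRCm38.p6. R 4.3.3 and Python 3.11.15 were used.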

Additional observations from a re-analysis of the deposited data

Results flagged for a closer look

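Values that stood apart from the other 4 tumors of their group by Dixon's criterion were found 19 times in 147 groups of 5, where chance alone would give about 1 in 20, or 7.35. Control tumor 1 was high for 4 members: *Gbp5* (861 against 271 to 416 in the other control tumors), *Gbp7* (4612 against 2409 to 2975), *Igtp* (3680 against 1192 to 1851) and *Iigp1* (5982 against 1131 to 2304). It was also high for *Ifi47* (1541 against 694 to 939), *Gm12250* (619.7 against 84.6 to 233), *Tgtp2* (1262 against 284 to 532), *F830016B08Rik* (240.2 against 65.8 to 100.4), *Gm12185* (101 against 35.2 to 42.3) and *Cxcl9* (1290.5 against 128 to 301). These genes varied together, so the values were not independent of each other.

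In clone 4, tumor 10 was high for *Serping1* (2735 against 304 to 774), *Ifit3* (282 against 173 to 197), *Jak2* (3095 against 2567 to 2661) and *Gm12185* (36.8 against 13.4 to 19.3). Tumor 8 was low for *Gm4951* (138 against 303 to 336), tumor 9 for *Pias1* (1058 against 1138 to 1163) and tumor 6 for *Gabarapl1* (3524 against 4451 to 4619). Tumor 13 of clone 18 was low for *Ifit3* (127 against 249.8 to 284), and control tumor 2 was high for *Irgq* (1212 against 917 to 992). Between the clones *Gsdmd* differed by -0.27 (SE 0.07, adjusted p = 0.027 by limma, clone 18 minus clone 4) and *Pycard* by -0.50 (SE 0.14, adjusted p = 0.0463). Of the 8 inflammasome genes 3 were lower and 1 higher in clone 18 than in clone 4, where 4.62% of all genes passed in either direction. The other 2 genes, named after their values were seen, were *Il1b* at -1.06 (adjusted p = 0.00621 by limma) and *Casp4* at 0.69 (adjusted p = 0.00905).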

How the results depend on the processing

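All 10 members kept a lower mean in knockout tumors under every alternative run. The count of members lower in knockout against control, 4 in the limma fit, was 1 with the two-sample test with unequal variances (11.9% of all genes lower) and 7 with DESeq2 (14.1%). It ran from 1 to 7 when each tumor was left out in turn: 1 without control tumor 1 (10.4% of all genes), 2 without control tumor 5 (10.8%) and 7 without control tumor 2 (10.8%). In clone 4 the count of 1 became 2 with edgeR (9.33% of all genes) and 4 with DESeq2 (11.5%), and ran from 1 to 3 with a tumor left out (3 without control tumor 2, against 8.49%, and 2 without tumor 10, against 10.2%). In clone 18 the count of 3 became 5 with DESeq2 (14.8%) and ran from 2 to 5 with a tumor left out (5 without control tumor 2, against 12.8%). Between the clones it stayed at 0 in every fit. The causes were not tested. With a tumor left out, some directions turned: *Gbp7* in clone 4 ran from -0.23 to 0.00885 and *Gbp2* in clone 18 from -0.15 to 0.13. Between the clones *Tgtp1* ran from -0.27 to 0.23, *Gbp3* from -0.13 to 0.17, *Igtp* from -0.14 to 0.00998, *Irgm1* from -0.11 to 0.0172 and *Irgm2* from -0.0228 to 0.14. With quantile normalization, edgeR and DESeq2 *Tgtp1* between the clones was -0.10, -0.0647 and -0.0683, against 0.01 in the limma fit. Genes lower in clone 18 than in clone 4 numbered 389 in the limma fit and 638 with DESeq2. The count of other IRG genes lower in knockout tumors, 5, ran from 2 to 8 with a tumor left out: 2 without control tumor 1 or 5, 3 without control tumor 3 or 4, tumor 8 or tumor 14, and 8 without tumor 10. With unequal variances 3 other IRG genes, 1 of 11 genes from the receptor to the promoter and 4 of 26 other interferon-gamma targets were lower, against 5, 4 and 10 in the limma fit, and with DESeq2 5 of 19 type I genes were lower against 3. The 5 genes most alike by Pearson shared 1 with those by Spearman. No paired analysis was possible because no replicate numbers link tumors of different groups. *Gbp6*, with 2 to 13 reads in knockout tumors, is limited by depth, and read counts give counting error only.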
